A study of Mus musculus with 18 samples.

Results

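The 9 genes *Cd44*, *Ctnnd1*, *Enah*, *Slk*, *Arhgef11*, *Epb41l5*, *Exoc7*, *Numb*, and *Scrib* carry exons that are spliced differently in epithelial and mesenchymal cells. They were chosen by name, as 9 of the 26264 genes in the splicing table, and every annotated event of these genes was taken, which gave 683 of 661941 events. Of these, 582 of 374159 events covered in every knockdown library and 596 of 380903 covered in every overexpression library could be followed.

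RNA was sequenced from primary mouse embryonic fibroblasts (MEFs) of a *Collagen-OKSM*, *M2rtta*+ line, in which doxycycline switches on OCT4, SOX2, KLF4, and MYC (OSKM). In the knockdown dataset (12 libraries), non-infected cells (NI) at day 0 stood beside cells at day 12 of OSKM induction that carried a scrambled shRNA (shSCR) or 1 of 4 lentiviral shRNAs, shCPSF3#1 and shCPSF3#2 against *Cpsf3* and shUL1#1 and shUL1#2 against *Hnrnpul1*. In the overexpression dataset (6 libraries), NI cells at day 0 stood beside day-12 cells with the empty retroviral vector (Empty) or with *Tia1* cDNA bearing a T7 tag (T7-TIA1). Infected cells were sorted for GFP at day 2 and then grown on inactivated MEF feeders, whose RNA can be part of the day-12 libraries. Every group had 2 libraries, and nothing in the labels says that these came from separate cultures, so that p-values measure the spread between libraries, which may be technical. One field of the labels gives day 0 for shUL1#2 and day 12 for NI of the overexpression dataset, against the titles, which were followed. With 2 libraries against 2, an exact permutation test of 1 event cannot go below p = 0.333, and tests were therefore made by a fit over all events or genes.

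When fibroblasts are reprogrammed they lose mesenchymal features and gain epithelial ones, the mesenchymal-to-epithelial transition. Part of that switch is splicing: the epithelial proteins ESRP1 and ESRP2 bind pre-mRNAs and favour epithelial forms of genes that act on adhesion, polarity, and the actin cytoskeleton, while other factors such as RBFOX2, MBNL1, and QK act on many of the same exons. The exons are short and mostly leave the reading frame intact, so that inclusion adds or removes a stretch of protein. Among the best known are the variable exons of CD44, which are included in many epithelia and skipped in the standard form of mesenchymal cells, and a short exon of Mena, the product of *Enah*, found in epithelial cells.

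Most of the exons on which the results turn are printed here, because their inclusion differed most between groups or with a knockdown. Each is given 5′ to 3′ on the transcribed strand, from GENCODE M21 transcripts (GRCm38, the mm10 build of the files), with the exon in capitals and 15 bases of each neighbouring exon in lower case. All are coding exons and have a length that is a multiple of 3. The *Enah* exon is exon 13 of 16 in Enah-202 (minus strand, chr1:181911597-181911659, 63 bases), and the *Slk* exon is exon 13 of 19 in Slk-202 (plus strand, chr19:47627648-47627740, 93 bases). In both genes 1 annotated transcript has the exon, of 16 for *Enah* and of 5 for *Slk*. The *Ctnnd1* exon is exon 11 of 21 in Ctnnd1-220 (minus strand, chr2:84612532-84612549, 18 bases). *Arhgef11* has 2 exons in this set (plus strand), exon 8 of 40 in Arhgef11-201 (chr3:87695398-87695517, 120 bases) and exon 37 of the same transcript (chr3:87734424-87734552, 129 bases). *Numb* also has 2 (minus strand), exon 9 of 10 in Numb-207 (chr12:83797197-83797343, 147 bases) and exon 3 of it (chr12:83825259-83825291, 33 bases).
Enah MmuEX0016847: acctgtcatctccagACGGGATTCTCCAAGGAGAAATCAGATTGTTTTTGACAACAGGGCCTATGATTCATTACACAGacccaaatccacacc
Slk MmuEX0043706: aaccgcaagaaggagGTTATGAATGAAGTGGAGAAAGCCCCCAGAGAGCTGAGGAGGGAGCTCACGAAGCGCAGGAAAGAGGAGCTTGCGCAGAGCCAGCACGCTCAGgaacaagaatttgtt
Ctnnd1 MmuEX0013079: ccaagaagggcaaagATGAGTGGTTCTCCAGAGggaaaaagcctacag
Arhgef11 MmuEX0005961: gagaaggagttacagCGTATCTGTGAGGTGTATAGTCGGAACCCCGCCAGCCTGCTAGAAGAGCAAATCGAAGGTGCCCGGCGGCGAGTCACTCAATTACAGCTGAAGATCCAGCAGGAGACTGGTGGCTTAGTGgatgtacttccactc
Arhgef11 MmuEX0005964: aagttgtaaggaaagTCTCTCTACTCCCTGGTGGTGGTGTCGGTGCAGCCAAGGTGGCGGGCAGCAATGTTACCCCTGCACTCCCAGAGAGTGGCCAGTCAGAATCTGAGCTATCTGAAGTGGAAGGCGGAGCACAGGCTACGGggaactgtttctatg
Numb MmuEX0032646: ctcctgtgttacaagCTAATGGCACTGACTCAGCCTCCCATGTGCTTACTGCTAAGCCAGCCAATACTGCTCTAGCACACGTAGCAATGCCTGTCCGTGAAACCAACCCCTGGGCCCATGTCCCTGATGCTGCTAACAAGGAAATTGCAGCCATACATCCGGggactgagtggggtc
Numb MmuEX0032648: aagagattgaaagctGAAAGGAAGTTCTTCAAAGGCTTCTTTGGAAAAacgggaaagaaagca

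Inclusion was read as percent spliced in (PSI), the percent of transcripts with the exon or intron, or using the splice site, as the authors deposited it for each library. Most events of the 9 genes hardly moved. The highest and lowest group means differed by under 2 PSI in 487 of the 582 covered events in the knockdown dataset and in 542 of 596 in the overexpression dataset, and by at least 10 PSI in 12 (2.06%, beside 2.7% of all covered events) and 10 events (1.68%, beside 1.51%). Among cassette exons alone, 8 of 181 (4.42%) reached 10 PSI in the knockdown dataset, where 2.77% of all covered exons did, and 8 of 186 (4.30%) in the overexpression dataset, where 1.78% did. Among introns 2 of 171 (1.17%) did in the knockdown dataset, beside 2.94% of all covered introns, and 1 of 172 (0.581%) in the overexpression dataset, beside 1.44%. The share of members was thus above that of all genes for exons and below it for introns, and neither difference was tested. Of the 20 exons of these genes that the study itself lists, 19 (95.0%) had a length divisible by 3, beside 39.4% of the 18560 covered exons with a mean PSI of 1 to 99. Of the 20, 17 lay in that PSI range, and 16 of these (94.1%) had such a length. The study listed these exons mostly from other reprogramming data, and some of them as changed in these same libraries, for which their movement is not independent evidence. *Epb41l5* could be followed least, with 3 of 65 events covered in every knockdown library.

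The libraries were alike in depth for these genes, with a median of 214 to 285 reads behind a covered event. *Cpsf3* stood at 38.6 to 77.1 scaled CPM in the 4 shCPSF3 libraries and at 86.7 to 118 in shSCR, *Hnrnpul1* at 38.7 to 85.9 in the 4 shUL1 libraries and at 156 to 185 in shSCR, and *Tia1* at 469 to 613 in T7-TIA1 and at 77.0 to 85.6 in Empty. Of 20 fibroblast genes fixed as markers, 18 were listed in the knockdown expression table, and their summed level ran from 29031 to 32476 in NI, from 14275 to 17249 in shSCR, and from 25604 to 43272 under the 4 shRNAs. By the test of expression described further on, 10 of the 18 fell in shSCR against NI, 10 rose with shCPSF3 against shSCR, and 7 rose with shUL1. For these and the next lists, the share of all 9435 listed genes called in either direction was 44.5% in shSCR, 26.1% for CPSF3, and 10.5% for UL1. Of 26 epithelial genes, 6 were listed, of which 4 rose in shSCR, 5 fell with shCPSF3, and 0 were called with shUL1. The defining epithelial genes *Cdh1* and *Epcam* were not among the listed genes, so their reads in the splicing table were used. The median reads per *Cdh1* exon event were 1 and 2 in NI, 1490 and 2411 in shSCR, 186 and 484 in shCPSF3#1, and between 635 and 1834 under the other 3 shRNAs. Of 7 blood and endothelial genes 3 were listed, the blood genes *Cd68*, *Lyz2*, and *Csf1r*. The others, *Ptprc*, *Pecam1*, *Cdh5*, and *Kdr*, were not, so that no endothelial gene was followed. The summed level of the 3 was 9.6 to 10.6 in NI, 171 to 300 in shSCR, and 259 to 1814 under the 4 shRNAs. All 3 rose in shSCR and again with shCPSF3, and 0 were called with shUL1. Of 12 pluripotency genes 1 was listed, *Klf4*, which rose in both control groups and was called in no other comparison. KLF4 is also among the OSKM factors, and RNA of the induced cassette and of the cell's own gene were not told apart. In the overexpression dataset 14 of 18 fibroblast genes and 0 of 4 listed epithelial genes fell in Empty, 1 epithelial gene rose, and 0 of these lists' genes were called with T7-TIA1. Of all 9472 genes listed there, 46.5% were called in Empty and 0.0% with T7-TIA1. Fewer cells of a type and less RNA per cell cannot be told apart in these bulk libraries, and the part of cell composition in the exon values was not tested.

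The first question was which of these exons changed between MEFs at day 0 and control cells at day 12. The ∆PSI rule of the study asks for a difference of at least 10 PSI between group means and at least 5 PSI between the nearest libraries. By this rule, 6 of the 582 covered events of the 9 genes differed between shSCR and NI, 5 higher and 1 lower in shSCR, beside 1.18% of all 374159 covered events. A test on reads was run beside it with *limma*, on log2 of inclusion over exclusion reads, here called the log2 inclusion ratio, and adjusted over all tested events. It called 8 of the 227 tested events, 6 higher and 2 lower in shSCR, beside 6.05% of all 153539 tested events. Between Empty and NI, the rule took 7 of 596 events (4 higher, 3 lower), beside 0.658% of all, and the test called 6 of 194 (4 higher, 2 lower), beside 1.22% of all tested events. The members' shares were thus at or below the share of all events in shSCR and above it in Empty, and no set was tested. The read-test share of all events rested on single libraries, and was 1.99% without NI library 2 in shSCR against NI and 0.294% without NI library 1 in Empty against NI. Same-numbered libraries of the day-12 knockdown groups deviated together (correlations of 0.674 to 0.949 across genes), while NI of that dataset did not share this (−0.127 to 0.0218). In the overexpression dataset the correlations were 0.171 for NI with Empty, 0.308 for NI with T7-TIA1, and 0.186 for Empty with T7-TIA1, and the labels do not say what a number marks. A fit with the library number as a block is quoted beside a result where it changes the call, as an alternative only. The shared deviations give it a basis among the day-12 knockdown groups. For comparisons with NI of that dataset they do not, and in the overexpression dataset the correlations were lower. Events of 1 gene share reads, and the 2 directions of an alternative splice site are mirror images, so that they are not independent counts.

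**Figure D1:**
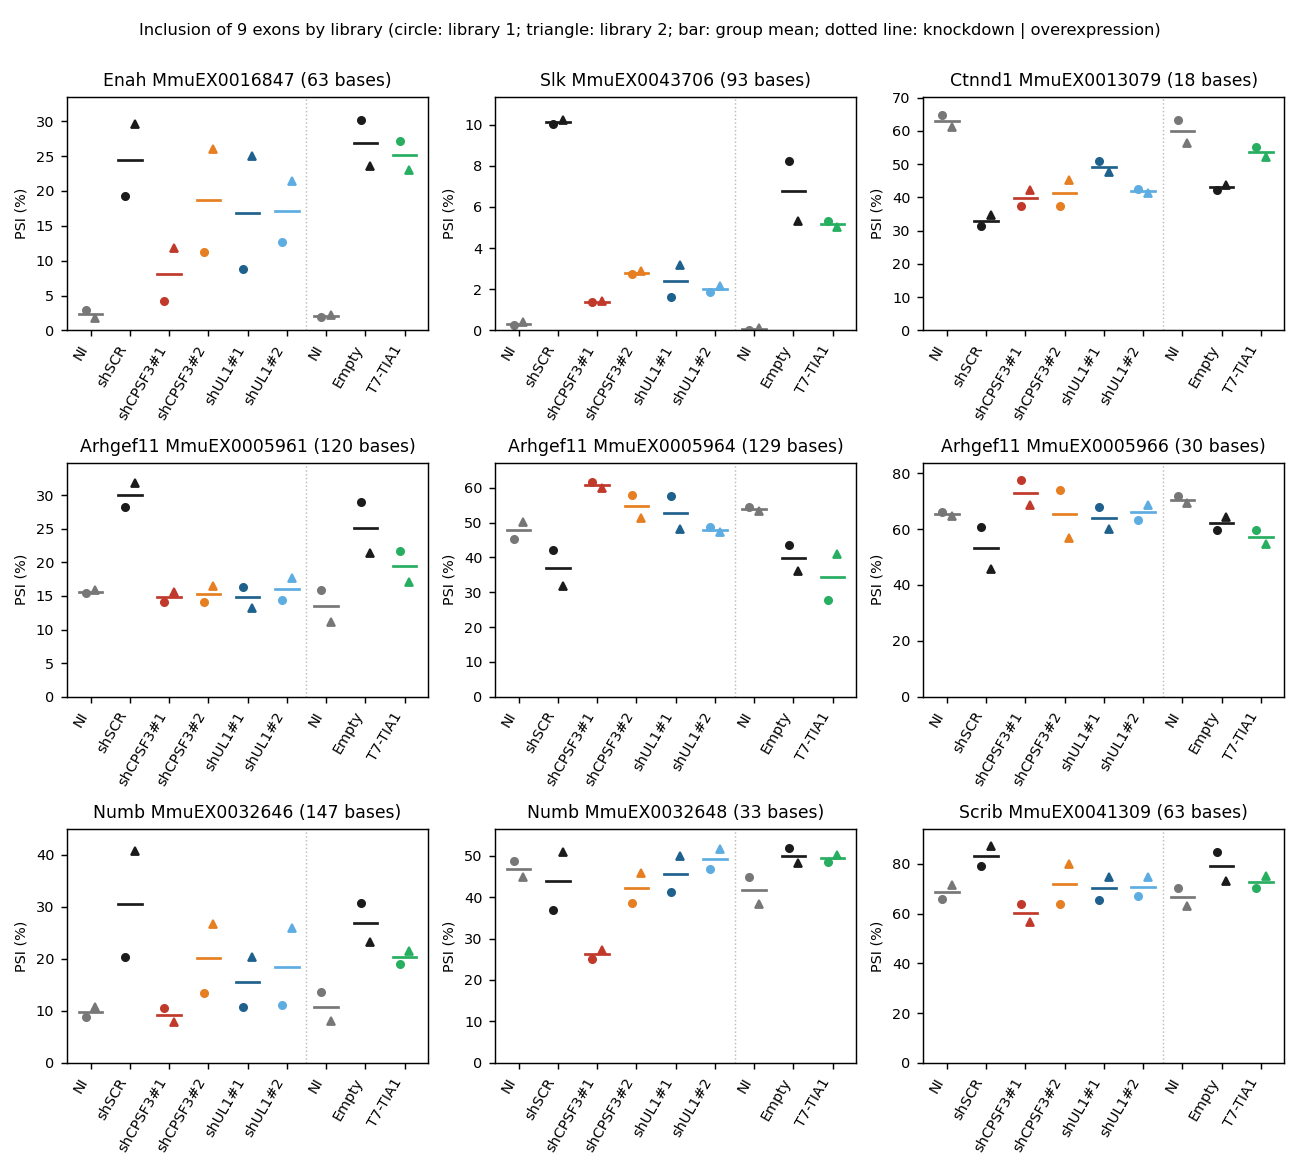
PSI (percent) of 9 exons in each of the 18 libraries, by group, with circles for library 1, triangles for library 2, and bars for group means; the dotted line parts the knockdown from the overexpression dataset. The *Slk* exon stands at 10.01 and 10.2 in shSCR and at 1.37 to 3.16 in the 8 knockdown libraries, and the *Arhgef11* exon of 120 bases at 28.3 and 31.8 against 13.3 to 17.7.

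*Enah* encodes Mena, which binds growing actin filament ends, and its 63-base exon is the one known from epithelial cells. Among knockdown libraries, the exon was at 2.89 and 1.85 PSI in NI and at 19.3 and 29.6 in shSCR. Among overexpression libraries it was at 1.93 and 2.2 in NI and at 30.2 and 23.6 in Empty. Both control groups thus stood far above NI, with no overlap. The rise in Empty was 24.8 PSI (log2 inclusion ratio 4.07 ± 0.28 SE, adjusted p = 2.17e-07 by *limma*), a call lost with unweighted PSI (adjusted p = 0.22). The difference in shSCR was nearly as large, 22.1 PSI (3.68 ± 1.01, adjusted p = 0.0879), and the shSCR libraries lay farther apart than those of Empty. The test did not call it without the block (adjusted p = 2.29e-05 with the block). Its SE rests on the spread in all 6 knockdown-dataset groups, which were fitted together. Under the 4 shRNAs the exon took middle values. It was at 4.27 and 11.8 PSI with shCPSF3#1, at 11.2 and 26.1 with shCPSF3#2, at 8.75 and 25.0 with shUL1#1, and at 12.6 and 21.5 with shUL1#2. Only the shCPSF3#1 libraries both lay below both shSCR libraries. The mean difference from shSCR was −11.1 PSI for CPSF3 (adjusted p = 0.412) and −7.47 for UL1 (adjusted p = 0.705), and neither passed the test without the block, with which CPSF3 did (adjusted p = 0.0126). In all 5 day-12 groups of the knockdown dataset library 2 was above library 1, by 7.54 to 16.3 PSI. With T7-TIA1 the exon was at 27.1 and 23.1 PSI, beside 30.2 and 23.6 in Empty (−1.79 PSI, adjusted p = 0.996).

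The other *Enah* events moved less. The 111-base exon MmuEX0016851, coding exon 7 of Enah-202, was included in most transcripts everywhere, from 83.9 to 96.96 PSI. It rose from 83.9 and 88.6 in NI to 94.9 and 96.6 in Empty (log2 inclusion ratio 1.81 ± 0.31, adjusted p = 0.00632), a call lost without NI library 1 (adjusted p = 0.133) and with unweighted PSI (adjusted p = 0.32). The 57-base exon MmuEX0016853 was rare throughout, and rose from 2.15 and 1.86 PSI in NI to 4.30 and 4.48 in shSCR (1.08 ± 0.29, adjusted p = 0.0354). That call was lost when either library of either group was left out (adjusted p = 0.0997 to 0.257). The intron downstream of the exon that precedes the 63-base exon (MmuINT0057398), which spans that exon, rose from 3.50 PSI in both NI libraries to 9.29 and 9.56 in shSCR (1.47 ± 0.24, adjusted p = 0.00156). In the overexpression dataset it was at 3.40 and 3.24 in NI and at 10.21 and 5.91 in Empty (adjusted p = 0.0753, or 0.0187 with the block). A second intron, MmuINT0057405, had 31.8 to 71.0 PSI over the libraries and met the ∆PSI rule in Empty against NI (20.2 PSI), but not in the test (adjusted p = 0.0886, or 0.0456 with the block). The 216-base exon MmuEX0016850, which matches no exon of the annotation, stayed between 2.01 and 7.49 PSI.

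*Slk* encodes a STE20-like kinase that acts on the cytoskeleton. Its 93-base exon had almost no inclusion in NI, at 0.28 and 0.39 PSI (1.5 and 2.02 inclusion reads), and stood at 10.01 and 10.2 in shSCR. It was lower under all 4 shRNAs, at 1.37 and 1.43 PSI with shCPSF3#1, 2.72 and 2.91 with shCPSF3#2, 1.64 and 3.16 with shUL1#1, and 1.85 and 2.14 with shUL1#2. No library under an shRNA came near shSCR, and none was as low as NI. The difference was 9.77 PSI for shSCR against NI (log2 inclusion ratio 4.44 ± 0.49, adjusted p = 3.97e-05), −8.00 for CPSF3 (−2.31 ± 0.26, adjusted p = 0.000116), and −7.91 for UL1 (−2.18 ± 0.25, adjusted p = 0.000185). The 3 calls held under the 16 alternatives run for each. Because the differences lie under 10 PSI, the ∆PSI rule did not count this exon. The exon also rose from 0 and 0.14 PSI in NI (0 and 0.51 inclusion reads) to 8.22 and 5.33 in Empty (4.62 ± 0.89, adjusted p = 0.0135). This call was lost without NI library 1 (adjusted p = 0.225), NI library 2 (0.154), or Empty library 1 (0.0522), and with unweighted PSI (0.285). With T7-TIA1 the exon was at 5.30 and 5.05 PSI (−1.60 against Empty, adjusted p = 0.979). The intron event that spans the exon (MmuINT0148379) rose from 0.64 and 1.23 PSI in NI to 3.20 and 3.17 in shSCR (adjusted p = 0.0301), a call lost without any 1 library of the 2 groups (adjusted p = 0.0868 to 0.212).

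*Ctnnd1* encodes p120-catenin, which holds cadherins at the membrane. Its 18-base exon, which adds 6 codons, fell more than any other exon of the 9 genes between day 0 and day 12. It was at 64.6 and 61.0 PSI in NI and at 31.3 and 34.8 in shSCR (−29.8 PSI, log2 inclusion ratio −1.78 ± 0.19, adjusted p = 3.61e-05), a call that held under all 16 alternatives. It was also at 63.4 and 56.4 PSI in NI of the overexpression dataset and at 42.3 and 43.7 in Empty (−16.9 PSI, −0.99 ± 0.22, adjusted p = 0.0312). That second call was lost with unweighted PSI (adjusted p = 0.29) and when either NI library (adjusted p = 0.393 and 0.0627) or either Empty library (0.211 and 0.0540) was left out. Mean inclusion was above that of the control under each shRNA and with T7-TIA1. The exon was at 50.8 and 47.6 PSI with shUL1#1 and at 42.5 and 41.3 with shUL1#2, a rise of 12.5 PSI (0.76 ± 0.17, adjusted p = 0.0261). The UL1 call was lost with unweighted PSI (adjusted p = 0.12) and without shSCR library 1 (adjusted p = 0.278), shSCR library 2 (0.0658), shUL1#1 library 1 (0.0863), shUL1#2 library 1 (0.0816), or shUL1#2 library 2 (0.0515). With shCPSF3#1 it was at 37.5 and 42.2 PSI and with shCPSF3#2 at 37.5 and 45.1, a difference of 7.54 that was not called (0.47 ± 0.17, adjusted p = 0.142). With T7-TIA1 it was at 55.0 and 52.1 PSI, 10.6 above Empty, with no overlap between libraries. This was the only event of the 596 to meet the ∆PSI rule in that comparison, and the test did not call it (0.61 ± 0.22, adjusted p = 0.628).

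The other *Ctnnd1* exon, MmuEX0013073, is exon 2 of 20 in Ctnnd1-210 (minus strand, chr2:84624270-84624449). It has 180 bases, of which 33 are coding, and is tied to the long form of p120-catenin known from mesenchymal cells. It was at 79.6 and 83.1 PSI in NI and at 68.6 and 69.5 in Empty (−12.3 PSI, log2 inclusion ratio −0.97 ± 0.22, adjusted p = 0.0327), lower in both Empty libraries. That call was lost with unweighted PSI (adjusted p = 0.289) and without either NI library (adjusted p = 0.114 and 0.272) or either Empty library (0.206 and 0.0579). In the knockdown dataset it was at 82.2 and 82.0 in NI and at 77.4 and 70.6 in shSCR (−8.11 PSI, adjusted p = 0.154, or 0.0404 with the block). The shRNA libraries lay between 71.6 and 84.0, over the range of both groups, and T7-TIA1 at 66.0 and 70.1.

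*Arhgef11* encodes a guanine nucleotide exchange factor with a PDZ domain. Its 120-base exon was at 15.5 and 15.8 PSI in NI and at 28.3 and 31.8 in shSCR (14.4 PSI, log2 inclusion ratio 1.18 ± 0.24, adjusted p = 0.00585). The group means under the shRNAs were 14.8 ± 1.08 PSI (SD, n = 2) for shCPSF3#1, 15.3 ± 1.67 for shCPSF3#2, 14.8 ± 2.18 for shUL1#1, and 16.1 ± 2.28 for shUL1#2, beside 15.7 ± 0.27 for NI. The 8 libraries, from 13.3 to 17.7 PSI, thus lay around the NI values and apart from shSCR. Against shSCR the exon fell by 15.01 PSI for CPSF3 (−1.26 ± 0.20, adjusted p = 0.00187) and by 14.6 for UL1 (−1.21 ± 0.20, adjusted p = 0.00459), and both calls held under all 16 alternatives. Both comparisons share the shSCR libraries, and the difference between CPSF3 and UL1 was not tested. The call for shSCR against NI was lost without NI library 1 (adjusted p = 0.0533) or 2 (0.0539). The exon was at 15.8 and 11.1 PSI in NI of the overexpression dataset, at 29.0 and 21.3 in Empty (11.7 PSI, adjusted p = 0.115, or 0.0371 with the block), and at 21.7 and 17.1 in T7-TIA1 (−5.76 against Empty, adjusted p = 0.956). The Empty difference met the ∆PSI rule and was not called by the test without the block.

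The 129-base exon of *Arhgef11*, near the end of the coding sequence, moved the other way. It was at 45.2 and 50.3 PSI in NI, at 42.1 and 31.8 in shSCR, at 61.7 and 59.9 with shCPSF3#1, and at 58.1 and 51.4 with shCPSF3#2. All 4 shCPSF3 libraries were above both control groups, and the exon rose by 20.8 PSI against shSCR (log2 inclusion ratio 1.19 ± 0.22, adjusted p = 0.00614). This call was lost without shSCR library 2 (adjusted p = 0.0877) and with unweighted PSI (adjusted p = 0.0736). With shUL1#1 it was at 57.5 and 48.0 PSI and with shUL1#2 at 48.8 and 47.2, 13.4 above shSCR, which met the ∆PSI rule but did not pass the test (0.76 ± 0.22, adjusted p = 0.0947). Its values were 54.4 and 53.2 in NI of the overexpression dataset, 43.7 and 36.1 in Empty, and 27.8 and 40.8 with T7-TIA1. Empty was below NI by 13.9 PSI, which met the ∆PSI rule and was not called (adjusted p = 0.192). The 30-base exon MmuEX0005966, coding exon 20 of 39 in Arhgef11-202 (chr3:87718229-87718258), was at 66.2 and 64.7 PSI in NI and at 60.8 and 45.8 in shSCR. The shRNA libraries lay between 56.8 and 77.4, around the NI values. Against shSCR the exon was 15.9 higher for CPSF3 (adjusted p = 0.0935, or 0.0278 with the block) and 11.7 for UL1 (adjusted p = 0.310). An alternative acceptor site of the gene (MmuALTA0001958) had group means 10.1 PSI apart in the knockdown dataset, with 112 to 162 reads and no call in any comparison.

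**Figure D2:**
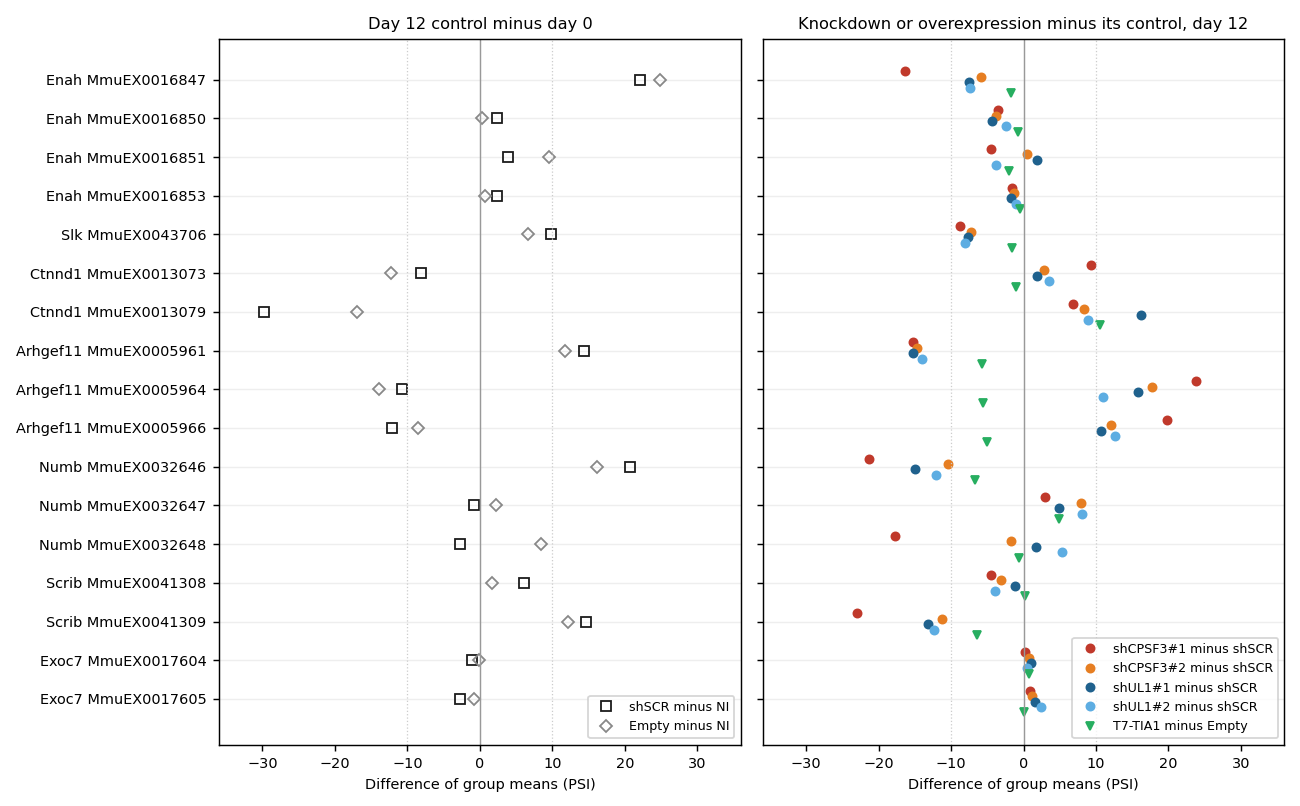
Differences of group mean PSI for 17 exons of 7 genes. The left panel gives control at day 12 minus NI at day 0 (squares, shSCR; diamonds, Empty), and the right panel gives each shRNA minus shSCR (circles) and T7-TIA1 minus Empty (triangles). The *Arhgef11* exon MmuEX0005961 lies at 14.4 on the left and between −15.3 and −14.0 for the 4 shRNAs, and the *Exoc7* exons lie near 0 throughout.

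*Numb* encodes an endocytic adaptor that restrains Notch signalling. The 147-base exon lengthens its proline-rich region, and the 33-base exon adds residues to its phosphotyrosine-binding domain. The 147-base exon was at 8.81 and 10.8 PSI in NI and at 20.3 and 40.7 in shSCR, higher in both but with a wide gap between the libraries (20.7 PSI, log2 inclusion ratio 1.89 ± 0.61, adjusted p = 0.0937, or 0.00411 with the block). It rose from 13.6 and 7.96 PSI in NI to 30.7 and 23.1 in Empty (16.2 PSI, 1.53 ± 0.37, adjusted p = 0.0491). This call held with the block and without Empty library 2 and was lost with unweighted PSI (adjusted p = 0.356) and without NI library 1 (adjusted p = 0.144) or 2 (0.344), Empty library 1 (0.322), or either T7-TIA1 library (0.0651). It was also lost with only the groups compared (0.0651) and with stricter coverage (0.0505), and held in 2 of 10 alternatives. With shCPSF3#1 the exon was at 10.54 and 7.93 PSI, near NI and below both shSCR libraries. With shCPSF3#2 it was at 13.4 and 26.7, with shUL1#1 at 10.8 and 20.3, and with shUL1#2 at 11.1 and 25.8. The mean difference was −15.9 PSI for CPSF3 (adjusted p = 0.141) and −13.5 for UL1 (adjusted p = 0.341), and neither was called without the block, with which CPSF3 was (adjusted p = 0.0106). As for *Enah*, library 2 was above library 1, here in 4 of the 5 day-12 groups.

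The 33-base *Numb* exon stood apart in 1 group. It was at 25.1 and 27.2 PSI with shCPSF3#1 and between 36.9 and 51.6 in all other knockdown-dataset libraries. With shCPSF3#2 it was at 38.6 and 45.8 PSI, within the range of shSCR at 36.9 and 50.9. The mean of both shRNAs differed from shSCR by −9.76 PSI and was not called (−0.60 ± 0.23, adjusted p = 0.173). The 85-base exon MmuEX0032647, which is not coding in any annotated transcript, ranged from 35.5 to 54.0 PSI and was called in no comparison. T7-TIA1, at 52.58 and 47.15, lay above Empty, at 47.02 and 42.91.

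*Scrib* encodes a scaffold of the basolateral polarity complex. Its 63-base exon was the main form everywhere. It was at 66.0 and 71.4 PSI in NI and at 79.4 and 87.2 in shSCR (14.6 PSI, log2 inclusion ratio 1.19 ± 0.36, adjusted p = 0.0635), which met the ∆PSI rule and not the test without the block (adjusted p = 0.00947 with the block). With shCPSF3#1 it was at 64.1 and 56.5 PSI and with shCPSF3#2 at 63.8 and 80.2, and the fall of 17.2 PSI against shSCR was called (−1.33 ± 0.32, adjusted p = 0.0370). That call was lost with unweighted PSI (adjusted p = 0.251) and without shSCR library 2 (adjusted p = 0.269), shCPSF3#1 library 1 (0.0579) or 2 (0.111), shCPSF3#2 library 1 (0.0825), or either NI library (0.0531). With shUL1#1 it was at 65.4 and 74.9 PSI and with shUL1#2 at 67.0 and 74.9, all below shSCR, by a mean of 12.8 PSI that was not called (adjusted p = 0.122, or 0.0228 with the block). The overexpression libraries were at 70.5 and 63.2 in NI, 84.8 and 73.3 in Empty, and 70.2 and 75.1 in T7-TIA1, with no call.

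Other *Scrib* events were smaller. The 84-base exon MmuEX0041308 (coding exon 29 of Scrib-201, chr15:76049457-76049540) rose from 6.56 and 8.04 PSI in NI to 13.0 and 13.8 in shSCR (log2 inclusion ratio 0.96 ± 0.26, adjusted p = 0.0370). That call was lost without any 1 of the 4 libraries (adjusted p = 0.100 to 0.228) and with unweighted PSI (0.158). Intron MmuINT0139950 met the ∆PSI rule in shSCR against NI, at 30.8 and 25.9 PSI against 18.6 and 15.8 (adjusted p = 0.0571, or 0.0374 with the block).

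*Exoc7* encodes a subunit of the exocyst, which tethers vesicles at the membrane. Its 93-base exon MmuEX0017604 (coding exon 7 of 20 in Exoc7-201, minus strand, chr11:116297571-116297663) belongs to the form known from epithelial cells. It stayed at 1.53 to 3.61 PSI in all 18 libraries, with 280 to 471 reads behind each value, and was called in no comparison. The shSCR and Empty libraries were at 1.58 to 2.84 PSI and the NI libraries at 2.13 to 3.61. The neighbouring 69-base exon MmuEX0017605 fell from 3.62 and 3.23 PSI in NI to 0.74 and 0.54 in shSCR. Behind these values were 11.4 and 9.82 inclusion reads in NI and 2.51 and 1.51 in shSCR (log2 inclusion ratio −1.99 ± 0.56, adjusted p = 0.0428). That call was lost without any 1 of these 4 libraries (adjusted p = 0.114 to 0.212) or either shUL1#1 library (0.0512), and with unweighted PSI (0.0956). Intron MmuINT0059802 fell from 2.33 and 2.30 PSI in shSCR to between 0 and 0.70 in the 4 shCPSF3 libraries. The call (−2.06 ± 0.49, adjusted p = 0.0279) rested on 7.67 and 6.65 inclusion reads in shSCR and on 0 to 2.51 in the shCPSF3 libraries. It was lost without either shSCR library (adjusted p = 0.133 and 0.0914), shCPSF3#1 library 2 (0.0891), or either shCPSF3#2 library (0.0897 and 0.0573).

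*Cd44* encodes the receptor for hyaluronan. Its variable region was covered well, with at least 666 reads behind each value of its 10 variable exons, exons 6 to 15 of 19 in Cd44-201 (minus strand, chr2:102831330-102848782). All 10 had a length divisible by 3, and all stayed under 10 PSI in every library. In 6 of the 10 no library reached 1 PSI. The highest was exon 15, MmuEX0010213 (207 bases, chr2:102831330-102831536), at 3.71 to 8.28 PSI, and the exon before it, MmuEX0010221 (90 bases), reached 3.12. The 6 covered exons outside this region with annotation were at 99.76 PSI or more. These exons were thus mostly skipped at day 0 and at day 12, with and without the knockdowns, and no variable exon was called in any comparison. A donor site within exon 14 (MmuALTD1001984) had group means 13.0 PSI apart in the overexpression dataset, on 28 to 146 reads. In the knockdown dataset, where not every library passed the coverage minimum, they were 36.6 PSI apart, on as few as 14 reads.

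**Figure D3:**
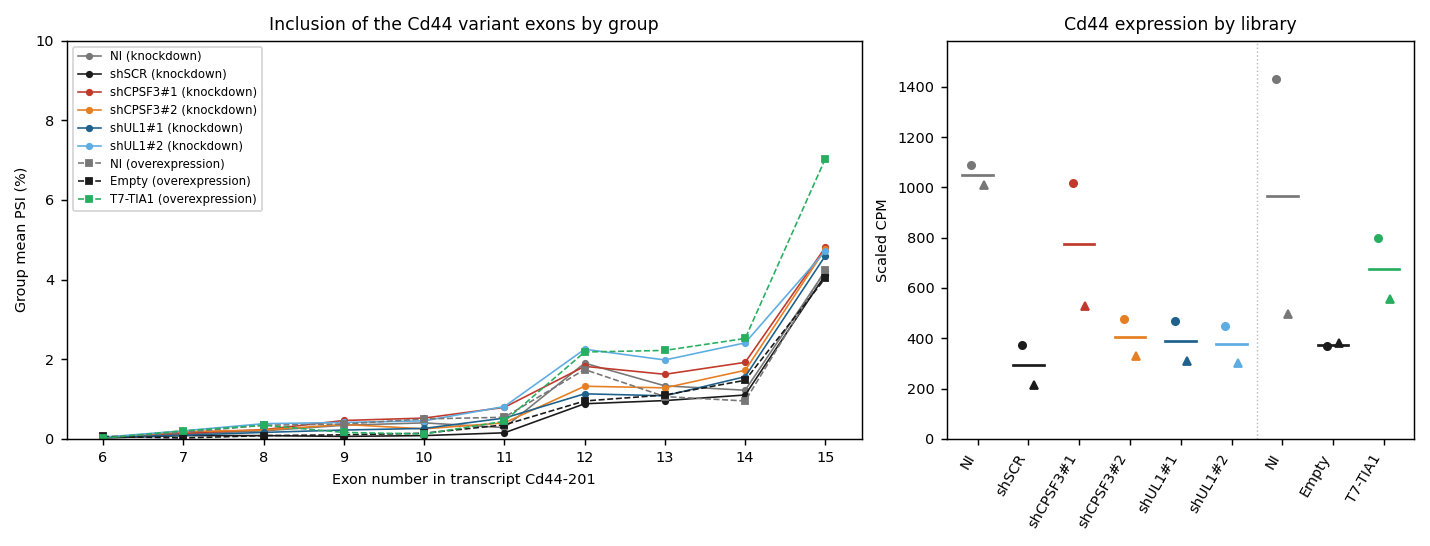
Left, mean PSI (percent, axis to 10) of the 10 variable exons of *Cd44* by their number in Cd44-201, 1 line per group; right, *Cd44* expression in scaled CPM by library, with bars for group means. Every exon stays under 10 PSI, while expression is at 1009 and 1091 in NI and at 213 and 372 in shSCR of the knockdown dataset.

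Expression was deposited as scaled CPM, and was tested with *limma* on log2(scaled CPM + 1), on which scale the fold changes are given. In shSCR against NI, 3 of the 9 genes were called, 2 higher and 1 lower, beside 44.5% of all 9435 listed genes. For CPSF3 against shSCR, 3 of 9 were called, 1 higher and 2 lower, beside 26.1% of all, and for UL1 1 of 9, lower, beside 10.5%. *Ctnnd1*, *Arhgef11*, *Numb*, and *Slk* were called in no comparison without the block, with which *Slk* was called for CPSF3 (adjusted p = 0.0383) and *Numb* in shSCR against NI (adjusted p = 0.0133).

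*Cd44* was at 1091 and 1009 scaled CPM in NI and at 372 and 213 in shSCR, a fall of 1.90 on the log2 scale (SE 0.41, adjusted p = 0.00646). With shCPSF3#1 it was at 1017 and 530, above both shSCR libraries. With the other 3 shRNAs it was between 303 and 476, with library 1 of each above both shSCR libraries and library 2 between them. The mean difference for CPSF3 was 0.94 (SE 0.35, adjusted p = 0.0803) and for UL1 0.41 (SE 0.35, adjusted p = 0.466), and neither was called without the block, with which CPSF3 was (adjusted p = 0.00304). In the overexpression dataset the 2 NI libraries were far apart, at 1433 and 497, beside 367 and 380 in Empty and 799 and 555 in T7-TIA1. Neither difference there was called (adjusted p = 0.0998 for Empty against NI and 0.999 for T7-TIA1 against Empty).

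*Epb41l5*, which encodes a FERM-domain protein of epithelial polarity, rose most. It was at 3.81 and 3.88 scaled CPM in NI and at 26.2 and 29.3 in shSCR, 5.93-fold higher (log2 2.57, SE 0.21, adjusted p = 9.94e-05). It stood at 8.94 and 7.58 with shCPSF3#1, at 15.1 and 19.9 with shCPSF3#2, at 15.1 and 18.8 with shUL1#1, and at 12.6 and 19.0 with shUL1#2. All 8 shRNA libraries lay between NI and shSCR. The fall against shSCR was 1.14 on the log2 scale for CPSF3 (SE 0.19, adjusted p = 0.00571) and 0.74 for UL1 (SE 0.19, adjusted p = 0.0419). The CPSF3 call was lost without shSCR library 2 (adjusted p = 0.0535). The UL1 call was lost without either NI library (adjusted p = 0.0758 and 0.0759), either shSCR library (0.111 and 0.222), either shCPSF3#1 library (0.0550 and 0.0549), either shUL1#1 library (0.120 and 0.0530), or shUL1#2 library 1 (0.104). The gene was not listed in the overexpression table. Its low level at day 0 left few events covered, but in the day-12 libraries of both datasets 24 events, 15 of them exons, could be read. In 23 of these the group means stayed within 5 PSI, and the widest range was 5.24 PSI.

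*Enah* also rose, from 154 and 159 scaled CPM in NI to 353 and 475 in shSCR (log2 1.38, SE 0.26, adjusted p = 0.00380). It rose from 182 and 237 in NI to 435 and 356 in Empty (log2 0.92, SE 0.17, adjusted p = 0.00924), a call lost without Empty library 1 (adjusted p = 0.0752). *Enah* was the only 1 of the 8 listed genes called in Empty against NI, beside 46.5% of all 9472 listed genes. Its levels under the shRNAs, 213 to 358, overlapped those of shSCR, and were lower by 0.53 (CPSF3, adjusted p = 0.115) and 0.65 (UL1, adjusted p = 0.110, or 0.0453 with the block) on the log2 scale, without a call in the fit without the block. *Exoc7* rose with CPSF3 knockdown, from 43.8 and 41.3 in shSCR to between 50.4 and 66.9 (log2 0.47, SE 0.12, adjusted p = 0.0281). *Scrib* fell with it, from 94.2 and 107 in shSCR to between 57.9 and 91.3 (log2 −0.56, SE 0.17, adjusted p = 0.0441). For UL1 *Scrib* was not called (adjusted p = 0.155, or 0.0354 with the block). The CPSF3 call for *Exoc7* was lost without either NI library (adjusted p = 0.0504 and 0.0503), either shSCR library (0.0711 and 0.166), either shCPSF3#1 library (0.0502 and 0.0653), or shCPSF3#2 library 1 (0.0741). The one for *Scrib* was lost without any of these 7 libraries (adjusted p = 0.0721 to 0.247) or either shUL1#2 library (0.0530 and 0.0529).

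**Figure D4:**
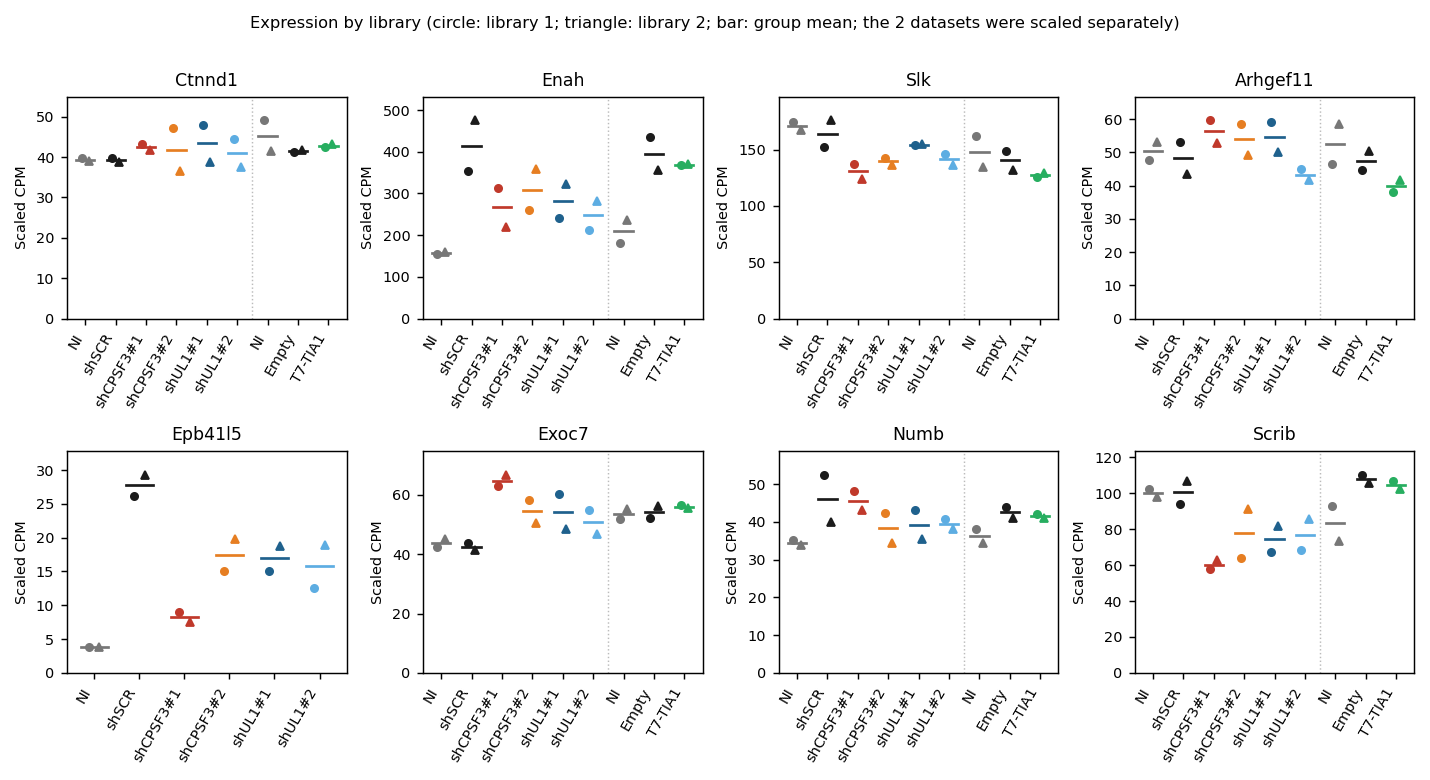
Expression of the other 8 genes in scaled CPM by library, with bars for group means; each axis starts at 0, and the datasets on either side of the dotted line were scaled separately. *Epb41l5*, listed for the knockdown dataset only, stands at 26.2 and 29.3 in shSCR and between 7.58 and 19.9 under the shRNAs.

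For the knockdowns, the question was how far loss of CPSF3 or hnRNP UL1 moved the exons from the day-12 control. The ∆PSI rule was applied to each of the 2 shRNAs against shSCR. It took 2 of the 582 events for CPSF3, beside 0.342% of all events, and 2 for UL1, beside 0.284% of all, and both times these were the *Arhgef11* exons of 120 and 129 bases, 1 lower and 1 higher. The test on reads called 5 of 227 events for CPSF3, 1 higher and 4 lower, beside 3.26% of all, and 3 for UL1, 1 higher and 2 lower, beside 1.68%. The shares of the 9 genes were close to those of all events or below them. T7-TIA1 against Empty gave 1 event of 596 by the ∆PSI rule, higher, beside 0.272% of all. The *limma* test called 0 of 194 events there, beside 0.0725% of all, and 0 also in every alternative run, with 15 events at an unadjusted p under 0.05. In expression, T7-TIA1 against Empty had 0 of 8 genes called, 0 with an unadjusted p under 0.05, and 0 in every alternative run, beside 0.0% of all listed genes.

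The regulators of these exons were followed from a list of 22 genes. *Esrp1* and *Esrp2* were not among the listed genes of the expression tables, and were read from the splicing table instead. The median reads per *Esrp1* exon event were 0 in all 4 NI libraries, 360 and 557 in shSCR, and 577 and 483 in Empty. They were 28 and 88 with shCPSF3#1, 104 and 380 with shCPSF3#2, 88 and 329 with shUL1#1, 108 and 273 with shUL1#2, and 366 and 417 with T7-TIA1. Among day-12 libraries *Esrp1* reads were lowest in shCPSF3#1 library 1, followed by shCPSF3#1 library 2 and shUL1#1 library 1, both at 88. They were higher in library 2 than in library 1 of all 5 day-12 groups of the knockdown dataset, as inclusion of the *Enah* exon was. *Esrp2* gave fewer reads, 11 to 18 in NI and 27.5 to 121 at day 12. These medians are not corrected for depth, and the part of *Esrp1* and of the library number in the exon values was not tested.

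**Figure D5:**
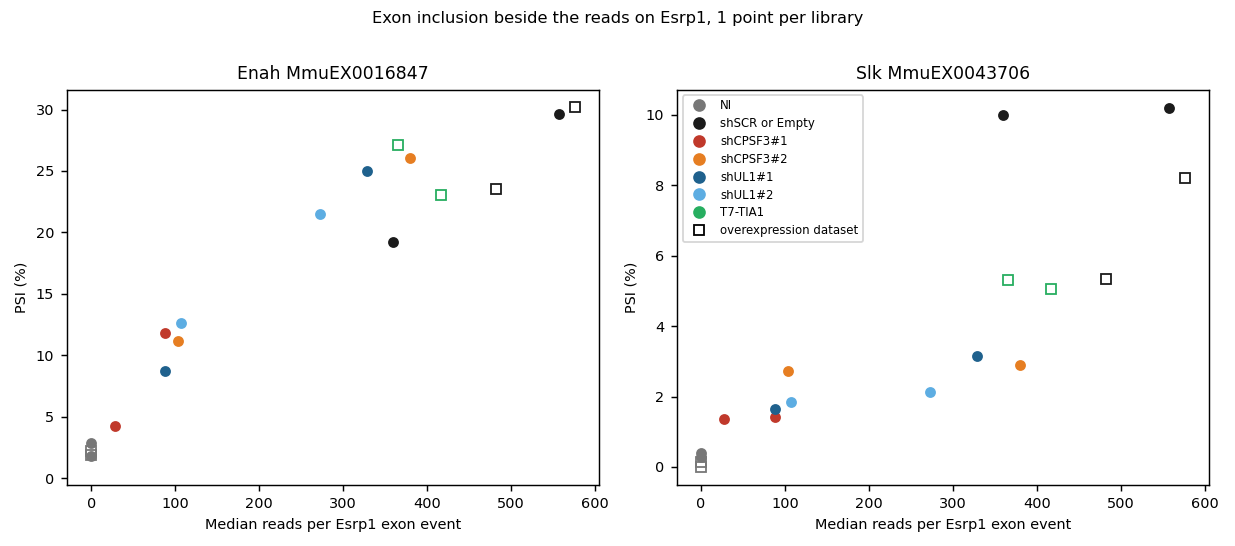
PSI (percent) of the *Enah* 63-base exon (left) and the *Slk* 93-base exon (right) against the median reads per *Esrp1* exon event, 1 point per library (filled, knockdown; open squares, overexpression). The NI libraries lie at 0 reads with under 3 PSI. The shSCR libraries, at 360 and 557 reads, have the highest *Slk* values, 10.01 and 10.2, while shCPSF3#2 library 2, at 380 reads, has 2.91.

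Of the 22 regulators, 16 were listed in the knockdown table. In shSCR against NI, 7 of the 16 were called, beside 44.5% of all genes (median log2 −0.39, beside 0.00 for all genes). *Rbm47*, an RNA-binding protein, rose from 1.104 and 1.78 scaled CPM to 24.3 and 33.3 (log2 3.61). The other 6 fell, among them *Mbnl1*, from 310 and 295 to 131 and 91.7 (log2 −1.46), and *Celf2*, from 83.1 and 76.5 to 24.6 and 34.1 (log2 −1.43). With CPSF3 knockdown 5 were called, beside 26.1% of all genes: *Mbnl1* (log2 1.02), *Celf2* (0.78), *Rbfox2* (0.64), and *Rbms3* rose, and *Rbm47* fell (−0.99). With UL1 knockdown 3 were called, beside 10.5% of all genes, and *Celf2*, *Mbnl1*, and *Rbfox2* rose. Of 17 listed in the overexpression table, 8 fell in Empty, beside 46.5% of all genes called, and 0 were called with T7-TIA1. The 3 knockdown-dataset comparisons share libraries, and their values are given side by side only.

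As a comparison, 21 other genes with exons of the same switch, such as *Fgfr2* and *Map3k7*, were counted (*Mbnl1* is also among the regulators). By expression, 3 of the 21 rose and 5 fell in shSCR, beside 44.5% of all genes called. For CPSF3 3 rose and 4 fell, beside 26.1%, and for UL1 2 rose, beside 10.5%. In Empty 7 rose and 5 fell, beside 46.5%, and 0 were called with T7-TIA1, as of all genes. Of their 1622 covered events, the ∆PSI rule took 16 higher and 16 lower in shSCR against NI, in 15 genes (1.97%, beside 1.18% of all events). It took 6 higher and 8 lower for CPSF3, in 9 genes (0.863%, beside 0.342%), and 6 higher and 7 lower for UL1, in 8 genes (0.801%, beside 0.284%). In the overexpression dataset it took 17 higher and 17 lower of 1628 in Empty (2.09%, beside 0.658%) and 4 higher and 7 lower with T7-TIA1 (0.676%, beside 0.272%). The read test called 30 higher and 15 lower of their 545 tested events in shSCR (8.26%, beside 6.05% of all), 12 higher and 25 lower for CPSF3 (6.79%, beside 3.26%), and 4 higher and 7 lower for UL1 (2.02%, beside 1.68%). Of 421 tested events it called 9 higher and 16 lower in Empty (5.94%, beside 1.22%). With T7-TIA1 *limma* called 0 of the 421, beside 0.0725% of all, and 42 had an unadjusted p under 0.05. The shares of these genes were thus above those of all events, except by the read test with T7-TIA1, and no set was tested.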

How the data were processed

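Stranded paired-end RNA-seq libraries from MEFs, 2 per group in 9 groups, were analysed from 2 kinds of deposited table. Per the submitters' processing notes and the study's methods, reads were mapped to mm10 with STAR 2.7.1a, and the authors made CPM with edgeR 3.16.5, keeping genes with at least 5 CPM in a share of samples and a lower limit on their coefficient of variation. Expression as deposited was scaled by the authors, separately for each dataset. These values do not keep the CPM scale and were treated as a signal. The design had assumed normalised CPM, and the same test was kept. The authors computed PSI, deposited as a percent for each event and library, with vast-tools on strand-specific settings. The deposited coverage scores and read texts beside each PSI gave the inclusion and exclusion reads.

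An event was covered in a dataset when every library had at least 10 reads by the score. The ∆PSI rule asked for 10 PSI between means and 5 PSI between nearest libraries, met by each of the 2 shRNAs in 1 direction. The read test used limma 3.58.1 (R 4.3.3, robust) on log2((inclusion + 1)/(exclusion + 1)), weighted by 1/(counting variance + 0.05), over events with at least 10 summed reads of each kind. Expression was tested with limma (trend) on log2(scaled CPM + 1). The 2 datasets were fitted apart, each with all its groups, tests were two-sided, and Benjamini-Hochberg adjustment ran over all events or genes tested, with a threshold of 0.05. The scripts were tested on simulated data, and Python 3.11.15, NumPy 2.4.6, pandas 2.3.3, and matplotlib 3.10.9 were used. Exons were matched to GENCODE M21 transcripts, in which 2 had no match, and sequences are printed for only some exons.

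The members and lists (splicing regulators, other switch genes, fibroblast, epithelial, pluripotency, and blood and endothelial genes) were chosen with earlier results of these data known. Events named were the exons the study lists, any covered event whose group means spread by at least 10 PSI, and, added after the values were seen, events called by the read test and the other exons of Cd44. Alternatives were a minimum of 15 PSI, no minimum between libraries, the rule met in at least 1 of 3 pairwise comparisons, stricter coverage, unweighted PSI, only the groups compared, a replicate block, a constant of 5, a minimum mean of 10, another scaling, and leaving out each library. Counting intervals are not given, since PCR copies are not independent molecules.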

Additional observations from a re-analysis of the deposited data

How the results depend on the processing

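Of 30 single calls, 10 held under every alternative, and of 446 values 346 kept their side of the threshold, 100 lost the call, 81 of them on leaving out 1 library, and 0 turned direction. The cause was not tested. With a minimum of 15 PSI, the ∆PSI rule took 3 member events for shSCR against NI, 1 for CPSF3, 0 for UL1, 4 for Empty against NI, and 0 for T7-TIA1. With no minimum between libraries, or with the rule met in at least 1 of 3 pairwise comparisons, it took 5 for CPSF3 and 5 for UL1. Unweighted PSI gave 0 read-test calls for Empty against NI. With only the groups compared, 1 member gene was called for CPSF3 and 0 for UL1. Leaving out 1 library gave ranges by the ∆PSI rule of 6 to 9 (shSCR), 2 to 6 (CPSF3), 2 to 5 (UL1), 7 to 13 (Empty), and 0 to 3 (T7-TIA1). A group left with 1 library meets the minimum between nearest libraries more easily, so that these counts can rise for that reason. In the fits, a lone library was assumed to vary like the other groups. The ranges by the read test were 3 to 10, 3 to 7, 2 to 4, 1 to 8, and 0 to 0, and by expression 3 to 4, 0 to 3, 0 to 1, 0 to 3, and 0 to 0, in the same order. The ∆PSI rule counts moved most without shSCR library 1 (5 for CPSF3, 5 for UL1), shSCR library 2 (5 for UL1), shCPSF3#2 library 2 (6 for CPSF3), and Empty library 2 (13 for Empty), and for T7-TIA1 without library 1 (0) or 2 (3) of Empty or of T7-TIA1. The read-test counts moved most for shSCR without NI library 1 (3) or 2 (3) or shSCR library 1 (5), for CPSF3 without shSCR library 2 (3) or shCPSF3#1 library 2 (3), and for Empty without NI library 1 (1) or 2 (2) or Empty library 1 (2). Expression calls for Empty numbered 3 without NI library 1, 2 without NI library 2, and 0 without Empty library 1.

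With the replicate block, which treats equal library numbers as paired, the read test called 16 member events for shSCR, 11 for CPSF3, and 11 for Empty, and expression called 5 genes for CPSF3 and 3 for UL1. The labels do not say what a number marks. Deviations of same-numbered libraries correlated at 0.674 to 0.949 across genes and at 0.103 to 0.254 across events between day-12 knockdown groups, and at −0.127 to 0.0218 across genes between NI and day 12, and at 0.171 to 0.308 in the overexpression dataset.

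Over all features, expression calls for CPSF3 were 2458, 344 with only the groups compared, and 4698 with the block, and for UL1 987, 145, and 2768. Leaving out 1 library gave 591 to 3225 genes for CPSF3, 158 to 1031 for UL1, 2613 to 4305 for shSCR, 1473 to 5978 for Empty, and 0 to 2 for T7-TIA1, and 1321 to 4944, 524 to 2799, 3048 to 9747, 349 to 2905, and 28 to 85 read-test events. Genes moved by over 1.5 times without shSCR library 2 or shCPSF3#2 library 1 for CPSF3, any NI, shSCR, or shUL1#2 library or shUL1#1 library 1 for UL1, either NI library for shSCR and for T7-TIA1, and either Empty library for Empty. Events did so without any library of the groups compared but shCPSF3#2 library 2 for CPSF3, shUL1#2 library 2 for UL1, and T7-TIA1 library 2 for T7-TIA1. Read-test calls were 9296 for shSCR, 3856 with unweighted PSI, and 5826 with only the groups compared. Unweighted PSI also took them from 5002 to 1354 for CPSF3, from 2581 to 696 for UL1, from 1447 to 7 for Empty, and from 86 to 2 for T7-TIA1, and the block gave 3773 and 236 for the last pair. The ∆PSI rule went from 4405 to 2267 events for shSCR, from 1280 to 583 for CPSF3, from 1064 to 445 for UL1, from 2507 to 1263 for Empty, and from 1036 to 406 for T7-TIA1 with a minimum of 15 PSI. With no minimum between libraries it took 1962 for CPSF3, 1605 for UL1, and 1662 for T7-TIA1, and with 1 of 3 comparisons 2174 and 1825. Without shSCR library 1 or 2 it took 2271 or 2478 for CPSF3 and 1974 or 2161 for UL1. Without Empty library 2 it took 5100 for Empty, and without T7-TIA1 library 2 it took 2834 for T7-TIA1. The count test on recovered reads was not run, since whole reads were not recovered. With 2 libraries per group, a call that was not made does not show that groups were alike.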
